A study of Homo sapiens with 4 samples.

Results

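The dual-specificity phosphatase (DUSP) and Sprouty genes through which ERK signaling limits itself were followed in MKN28 cells, a human gastric adenocarcinoma cell line. The set was given as 10 symbols (DUSP1, DUSP4, DUSP5, DUSP6, DUSP9, DUSP10, SPRY2, SPRY4, SPRED1 and SPRED2), and all 10 were found among the 23362 entries of the gene expression table. Of these, 8 reached 1 FPKM in some library and are called tested below, as are 11769 genes in all. DUSP5 stayed below that level and DUSP1 was listed at 0. FPKM scales fragments by transcript length and by the mapped fragments of the library, so that levels of different genes can be compared.

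Poly(A) RNA was sequenced from 4 stable lines made with a tet-on retroviral vector and drug selection. The control line carried luciferase (Luc). WT carried KIAA1324, 3NQ carried KIAA1324 with glutamine in place of asparagine at its 3 putative N-glycosylation sites, and ΔTM carried KIAA1324 without its transmembrane domain. The KIAA1324 constructs were tagged with HA, and all lines shared the tet-on system and selection. Whether each line was a clone or a pool, and whether doxycycline was given before RNA extraction, is not given in the sources used here. There was 1 library per line, so differences could not be set against a spread between replicates and no test was run. In every comparison, fewer cells of a type and less RNA per cell cannot be told apart.

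KIAA1324 had 11185 FPKM in WT and 8197 in 3NQ, compared to 2.86 in Luc. It was listed at 0 in the library labelled ΔTM, which goes against that label if the value is right. A listed 0 can also be a failed estimate, and the cause of this 0 was not tested. All values of that library are therefore given for the library labelled ΔTM. Summed FPKM ranged from 560540 to 585104 among the 4 libraries, and read depth is not recorded in the table. All 6 epithelial markers (EPCAM, CDH1, KRT8, KRT18, KRT19 and CLDN4) had an FPKM of at least 173.9 in every library, while their summed FPKM ranged from 7922 in WT to 13639 in Luc. KRT8 (−0.91 on the log2 scale against Luc) and KRT18 (−0.80) passed a 1.5-fold threshold in WT, whereas EPCAM, CDH1, KRT19 and CLDN4 lay between −0.22 and −0.064. Of the 7 immune, endothelial and stromal markers found in the table, 6 were below 1 in every library, and COL1A1 reached 15.3. The part of these differences in the results below was not tested.

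ERK is the last kinase of the RAS, RAF and MEK cascade downstream of growth factor receptors. Dual-specificity phosphatases of the MAP kinase phosphatase class remove both phosphates from the activation loop of ERK, JNK or p38. Sprouty and Spred proteins act further up, between the receptors and RAF. Because transcription of many of these genes rises with ERK activity, their mRNAs are widely used as readouts of that pathway in tumor cells.

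The promoters of the members that reached the 1.5-fold threshold in a comparison, and of DUSP1, are shown to let the values be read beside the sequence. Each is the 250 bases before the transcription start from RefSeq on GRCh38.p14, a different build from the GRCh37 coordinates of the expression table. They lie at chrX:153642191-153642440 on the plus strand (DUSP9), chr1:221742090-221742339 on the minus strand (DUSP10), chr12:89352502-89352751 on the minus strand (DUSP6) and chr5:172771196-172771445 on the minus strand (DUSP1). Capitals mark an exact cAMP response element (TGACGTCA) or TATA box (TATAAA). RefSeq lists another start for DUSP9 and DUSP10, and the entry listed first was used.
DUSP9: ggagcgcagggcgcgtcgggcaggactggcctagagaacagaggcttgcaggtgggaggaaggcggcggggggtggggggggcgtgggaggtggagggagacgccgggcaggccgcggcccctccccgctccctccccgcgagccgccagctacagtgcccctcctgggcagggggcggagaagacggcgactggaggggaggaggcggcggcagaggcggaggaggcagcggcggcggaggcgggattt
DUSP10: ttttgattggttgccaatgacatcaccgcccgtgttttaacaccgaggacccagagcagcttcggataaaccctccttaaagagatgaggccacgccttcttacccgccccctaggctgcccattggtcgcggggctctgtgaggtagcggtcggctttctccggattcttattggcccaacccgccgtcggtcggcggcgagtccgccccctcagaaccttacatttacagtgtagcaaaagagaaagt
DUSP6: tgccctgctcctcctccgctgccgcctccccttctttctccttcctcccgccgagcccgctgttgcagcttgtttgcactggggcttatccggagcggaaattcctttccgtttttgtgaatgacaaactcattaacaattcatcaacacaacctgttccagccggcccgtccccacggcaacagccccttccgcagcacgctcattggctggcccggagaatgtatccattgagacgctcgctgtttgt
DUSP1: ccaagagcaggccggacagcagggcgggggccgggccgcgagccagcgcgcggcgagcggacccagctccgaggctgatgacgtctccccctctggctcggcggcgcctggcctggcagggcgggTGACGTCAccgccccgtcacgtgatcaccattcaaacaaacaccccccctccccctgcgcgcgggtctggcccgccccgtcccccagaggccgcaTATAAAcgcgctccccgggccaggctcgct

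Of the 10 members, 8 had a RefSeq promoter in the table used, and DUSP4 and DUSP5 did not. Only the first listed start of each gene was searched, and further starts are listed for SPRY2, SPRED2, DUSP9 and DUSP10. TGACGTCA, searched on both strands, was present in DUSP1 alone among these 8, starting 125 bases before the transcription start, and in 1.65% of 35116 promoters of the same length. TATAAA, likewise on both strands, was also in DUSP1 alone, starting 30 bases before the start, and in 10.7% of promoters. The ETS motif CCGGAAGT (3.42% of promoters) and the CArG box bound by serum response factor (1.16%) were in none of the 8. The GC content was 76.4% in DUSP9, 56.4% in DUSP10, 57.2% in DUSP6 and 74.4% in DUSP1, compared to a median of 58% over all promoters. The 3 promoters of the members that reached the threshold held none of the motifs searched, and DUSP9 stood apart from the other two in base composition.

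SPRED2, which binds neurofibromin and restrains RAS, was the most abundant member in every library. In Luc, the levels ran from SPRED2 at 70.5 through SPRED1 at 12.6, DUSP4 at 10.1, SPRY4 at 9.89, SPRY2 at 6.30, DUSP9 at 2.65, DUSP10 at 2.50, DUSP6 at 2.49 and DUSP5 at 0.0682 to DUSP1, listed at 0. SPRED2 was above 93.2% of all entries in Luc and DUSP6 above 56.2%. SPRED2 made up 60.2% of the summed FPKM of the members in Luc and 55.8% in WT. SPRED1, DUSP4 and SPRY4 exchanged places among the libraries, whereas DUSP9, DUSP10 and DUSP6 followed in this order in all 4. Without replicates, it is unknown whether neighbours in this order differ beyond their spread.

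**Figure D1:**
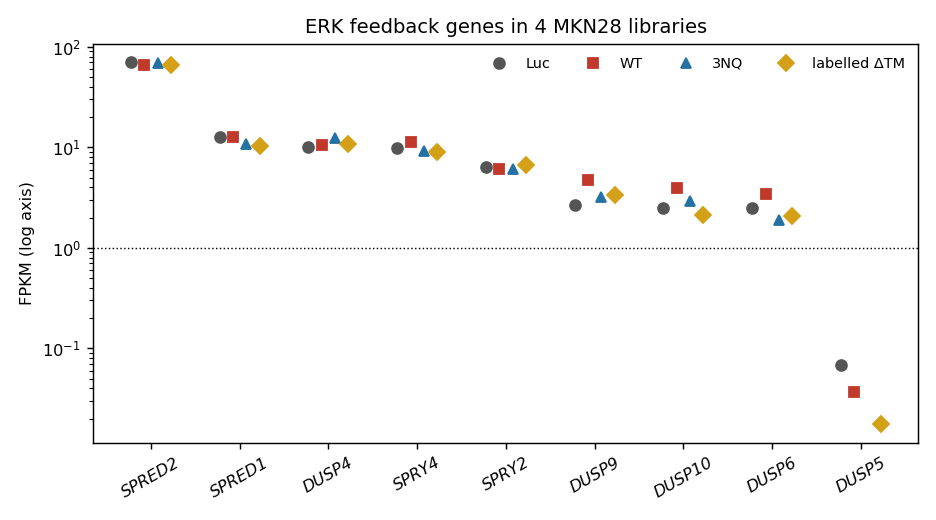
FPKM (log axis) of 9 ERK feedback genes, with 1 point for each of the 4 MKN28 libraries. The dotted line is an FPKM of 1, DUSP5 in 3NQ and DUSP1 in every library are at 0 and not drawn, and WT lies above the other libraries for DUSP9, DUSP10 and DUSP6.

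Compared to Luc, DUSP9 was the only member that passed the 1.5-fold threshold, and it did so only in WT. Calls required log2 of (FPKM + 1) to differ by at least 0.585, which understates the change of low genes. In WT, 1 of the 8 tested members was called higher, compared to 3.36% of all tested genes, and 0 were called lower, compared to 3.34%. In 3NQ, 0 members were called higher or lower, compared to 1.77% and 2.57% of all tested genes. In the library labelled ΔTM, 0 were called in either direction, compared to 1.54% higher and 1.57% lower. With 8 members tested, shares of this size correspond to less than 1 called member.

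The median log2 ratio of the 8 tested members to Luc was 0.11 in WT, −0.040 in 3NQ and −0.11 for the library labelled ΔTM. Over all 11769 tested genes, the medians were −0.0049, −0.038 and −0.060, respectively. The members ranged from −0.087 to 0.64 in WT, from −0.26 to 0.27 in 3NQ and from −0.26 to 0.26 in the library labelled ΔTM. Of the 8 members, 5 were above Luc in WT, compared to 49.1% of all tested genes. For 3NQ, 3 of the 8 were above Luc, compared to 43.0% of all tested genes, and the library labelled ΔTM likewise had 3, compared to 37.02%. All 3 comparisons share the Luc library.

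**Figure D2:**
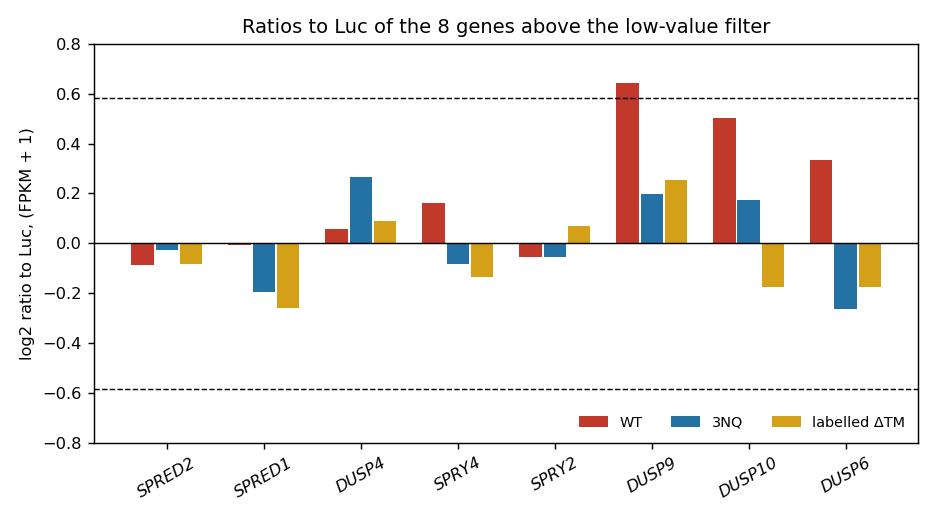
Log2 ratios to Luc, computed on FPKM + 1, of the 8 tested ERK feedback genes, with 1 bar for each of WT, 3NQ and the library labelled ΔTM. Dashed lines mark 1.5-fold, which DUSP9 in WT alone passed, at 0.64.

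DUSP9 (ENSG00000130829, chrX:152907946-152916781, plus strand), a cytoplasmic phosphatase with a preference for ERK, had 2.65 FPKM in Luc and 4.70 in WT, with 3.18 in 3NQ and 3.35 for the library labelled ΔTM. WT was the highest and Luc the lowest, with the other libraries close to each other. The log2 ratio to Luc was 0.64 in WT, 0.20 in 3NQ and 0.26 for the library labelled ΔTM. In WT, 2.57% of all tested genes were as far above Luc. Of the 1443 tested genes with a mean FPKM of 2 to 5, the range that also holds DUSP6 and DUSP10, 5.89% were called higher in WT. The call rests on low levels, since it was lost with a pseudocount of 5 (0.34). It also rests on the Luc library, as the ratio was 0.42 against the mean of 3NQ and the library labelled ΔTM.

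DUSP6 (ENSG00000139318, chr12:89741009-89747048, minus strand), a cytoplasmic phosphatase selective for ERK and itself a common readout of ERK activity, had 2.49 FPKM in Luc and 3.40 in WT, with 1.91 in 3NQ and 2.09 for the library labelled ΔTM. WT was the highest, Luc came next, and 3NQ and the library labelled ΔTM were below Luc. The log2 ratio to Luc was 0.33 in WT, −0.26 in 3NQ and −0.17 for the library labelled ΔTM, none past the threshold. WT against 3NQ, a comparison without Luc, gave 0.60, and DUSP6 was the only member called higher there, compared to 2.89% of all tested genes. No member was called lower in WT than in 3NQ, compared to 1.58%. This call was narrow, and it was lost after rescaling to the upper quartile (0.58) or to the median of ratios (0.57).

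DUSP10 (ENSG00000143507, chr1:221874766-221915518, minus strand), a phosphatase that acts on p38 and JNK more than on ERK, had 2.50 FPKM in Luc and 3.96 in WT, with 2.95 in 3NQ and 2.101 for the library labelled ΔTM. WT was again the highest, and the library labelled ΔTM the lowest. The log2 ratio to Luc was 0.50 in WT, 0.17 in 3NQ and −0.18 for the library labelled ΔTM. In WT, it became 0.64 when the pseudocount was 0.1, and it passed the threshold. Against the library labelled ΔTM, the ratio of WT was 0.68, and DUSP10 was the only member called higher there, compared to 4.25% of all tested genes. No member was called lower in that comparison, compared to 2.91%.

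At the main setting, each of the 3 calls thus concerned another gene and another comparison. This separation depended on the pseudocount. When it was 0.1, DUSP9 and DUSP10 both passed in WT against Luc, and DUSP6 and DUSP10 both passed in WT against the library labelled ΔTM. DUSP9, DUSP6 and DUSP10 did not all pass in any 1 comparison at either value. Multiplied by the length of the canonical GENCODE transcript in kilobases, which undoes the scaling for length, the FPKM in Luc came to 6.44 for DUSP9, 9.03 for DUSP6 and 6.49 for DUSP10. In WT, the corresponding values were 11.4, 12.3 and 10.3. As the number of mapped fragments is unknown, the counting error of these values cannot be given. An annotated long non-coding RNA lies opposite to DUSP6 in GENCODE, and whether reads were counted by strand is not stated. Such overlaps are also annotated opposite to DUSP1 and SPRY4, and on the same strand for SPRED2.

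DUSP4 (ENSG00000120875, chr8:29190581-29208185, minus strand), a nuclear phosphatase of ERK and JNK, had 10.1 FPKM in Luc and 10.6 in WT, with 12.4 in 3NQ and 10.8 for the library labelled ΔTM. It was the only tested member with its highest value in 3NQ. The log2 ratio to Luc was 0.058 in WT, 0.27 in 3NQ and 0.088 for the library labelled ΔTM.

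DUSP5 and DUSP1, the other nuclear phosphatases of the set and both products of immediate-early transcription, were nearly absent from the table. DUSP5 (ENSG00000138166, chr10:112257596-112271302, plus strand) had 0.0682 FPKM in Luc and 0.0368 in WT, with 0.0174 for the library labelled ΔTM, and it was listed at 0 in 3NQ. DUSP1 (ENSG00000120129, chr5:172195093-172198198, minus strand) was listed at 0 in all 4 libraries. A listed 0 can be a failed estimate, since EIF3C, a translation initiation factor that dividing cells use, was also listed at 0 in all 4 libraries. No ratio is given for DUSP1, and its absence from these cells cannot be inferred from the table.

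SPRY4 (ENSG00000187678, chr5:141689992-141706020, minus strand), which restrains RAS activation below growth factor receptors, had 9.89 FPKM in Luc and 11.2 in WT, with 9.27 in 3NQ and 8.93 for the library labelled ΔTM. WT was the highest, and 3NQ and the library labelled ΔTM were below Luc, the same side of Luc as for DUSP6, but the log2 ratio to Luc was 0.16 in WT, −0.085 in 3NQ and −0.13 for the library labelled ΔTM. An antisense RNA, SPRY4-AS1, overlaps SPRY4 on the opposite strand and had 0.592 FPKM in Luc and 1.11 in WT, with 0.863 in 3NQ and 0.685 for the library labelled ΔTM. Its part in the SPRY4 values was not tested.

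SPRY2 (ENSG00000136158, chr13:80910111-80915086, minus strand), a Sprouty protein that also binds the ubiquitin ligase CBL, varied little. Its FPKM was 6.30 in Luc and 6.03 in WT, with 6.03 in 3NQ and 6.65 for the library labelled ΔTM, and the highest value was 1.10 times the lowest. The log2 ratio to Luc was −0.054 in WT, −0.054 in 3NQ and 0.067 for the library labelled ΔTM.

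SPRED2 (ENSG00000198369, chr2:65537985-65659771, minus strand) had the narrowest range of all tested members, at 70.5 FPKM in Luc and 66.3 in WT, with 69.2 in 3NQ and 66.4 for the library labelled ΔTM. Its highest value was 1.06 times the lowest, and WT was the lowest library. SPRED1 (ENSG00000166068, chr15:38544527-38649450, plus strand), a related inhibitor of RAS and RAF, had 12.6 in Luc and 12.6 in WT, with 10.9 in 3NQ and 10.4 for the library labelled ΔTM. Here 3NQ and the library labelled ΔTM lay below Luc and WT, with a log2 ratio to Luc of −0.20 in 3NQ and −0.26 for the library labelled ΔTM, compared to −0.0053 in WT.

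Among the 8 tested members, WT was the highest of the 4 libraries for 4, namely DUSP6, DUSP9, DUSP10 and SPRY4, compared to 33.6% of all tested genes. Without the library labelled ΔTM, WT was the highest of the remaining 3 libraries for the same 4 members, compared to 37.2% of all tested genes. WT was the lowest for SPRED2. The median log2 ratio of WT was 0.22 against 3NQ and 0.27 against the library labelled ΔTM, where the medians of all tested genes were 0.025 and 0.047. These comparisons share the WT library. Between 3NQ and the library labelled ΔTM, 0 members were called, compared to 1.46% of all tested genes higher and 1.88% lower in 3NQ, and the median was 0.054. With an FPKM of at least 5 required, which leaves 5 members and removes DUSP6, DUSP9 and DUSP10, the median of WT was 0.00034 against 3NQ and −0.0031 against the library labelled ΔTM.

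The phosphatases were also summed over the whole MAP kinase phosphatase family, which adds DUSP2, DUSP7, DUSP8 and DUSP16 to the members. The sum of the 10 genes was 36.6 in Luc and 48.3 in WT, with 45.3 in 3NQ and 39.3 for the library labelled ΔTM. It was thus 1.32 times Luc in WT and 1.24 times Luc in 3NQ, and the 6 phosphatases among the members were 1.27 and 1.15 times Luc. Summed with the Sprouty and Spred genes, all 10 members were 1.01 times Luc in WT and 0.989 times in 3NQ, and the Spred pair alone 0.949 and 0.964 times. Under the 3 rescalings, the factor for the 10 genes stayed between 1.31 and 1.36 in WT. The nuclear class (DUSP1, DUSP2, DUSP4 and DUSP5) was 1.04 times Luc in WT, the cytoplasmic ERK class (DUSP6, DUSP7 and DUSP9) 1.38 times and the class acting on p38 and JNK (DUSP8, DUSP10 and DUSP16) 1.47 times. In 3NQ, the same classes were 1.21, 1.27 and 1.23 times Luc. The nuclear sum was nearly DUSP4 alone, since DUSP1 and DUSP2 were listed at 0, which can be a failed estimate.

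Of the 10 phosphatases, DUSP9 and DUSP8 were called higher in WT than in Luc, compared to 3.36% of all tested genes. The others were not called or not tested. In FPKM, WT minus Luc was 3.07 for DUSP16, 2.28 for DUSP8, 2.05 for DUSP9, 1.53 for DUSP7, 1.46 for DUSP10, 0.907 for DUSP6 and 0.458 for DUSP4. DUSP8, which acts on JNK and p38, had 1.67 FPKM in Luc and 3.95 in WT, with 3.72 in 3NQ and 1.62 for the library labelled ΔTM. WT and 3NQ were high and the other libraries low, with log2 ratios to Luc of 0.89 in WT and 0.82 in 3NQ, both called higher. DUSP7 had its highest value, 9.82, in 3NQ, compared to 6.62 in Luc.

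**Figure D3:**
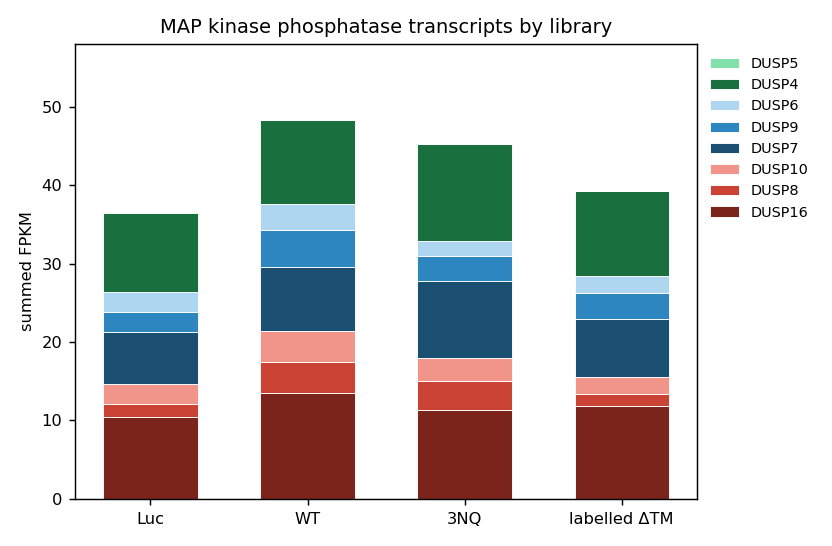
Summed FPKM of the MAP kinase phosphatases in each of the 4 MKN28 libraries, stacked by gene, where DUSP1 and DUSP2 are at 0. The sum is 36.6 in Luc and 48.3 in WT, with 45.3 in 3NQ and 39.3 for the library labelled ΔTM.

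Among the remaining Sprouty and Spred genes, SPRY3 and SPRED3 were below the filter. SPRY1 had 12.6 FPKM in Luc and 10.8 in WT, with 8.83 in 3NQ and 10.5 for the library labelled ΔTM, so that it was above SPRY2 and SPRY4 in Luc, and 3NQ was the lowest library. Its log2 ratio to Luc in 3NQ was −0.47. Of 14 atypical dual-specificity phosphatases, which lack the MAP kinase binding domain, 10 were tested. DUSP28 was called lower in WT (−0.66) and in the library labelled ΔTM (−0.59), from an FPKM of 3.23 in Luc. The shares of all tested genes called lower there were 3.34% and 1.57%. In 3NQ, DUSP28 was also below Luc (−0.42), without a call. No other gene of this list was called against Luc. Rescaling to the upper quartile or to the median of ratios ended the DUSP28 call in the library labelled ΔTM.

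Of 18 genes of the cascade from receptor to ERK, all were tested and none was called against Luc in WT, 3NQ or the library labelled ΔTM. Against Luc, WT gave a list median of −0.044 on the log2 scale and 3NQ one of −0.11, compared to −0.18 for the library labelled ΔTM, in which 2 of the 18 were above Luc, compared to 37.02% of all tested genes. The medians of all tested genes were −0.0049, −0.038 and −0.060. Of 10 tested genes of other feedback, among them ERRFI1 (an inhibitor of EGFR), CBL and NF1, none was called against Luc. Of all tested genes, 3.36% were called higher and 3.34% lower in WT, and 1.77% and 2.57% in 3NQ. For the library labelled ΔTM, the shares were 1.54% and 1.57%. With lists of this size, few or no calls correspond to these shares. ERRFI1 had 416.1 FPKM in Luc and 325.9 in WT, with 335.8 in 3NQ and 392.5 for the library labelled ΔTM, and thus was lower in WT and 3NQ than in the other libraries, below the threshold.

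The transcriptional output of ERK was followed with 14 genes outside the set, all tested. In WT, 1 was called higher and 1 lower, compared to 3.36% and 3.34% of all tested genes. In 3NQ, 1 was called higher and 1 lower, compared to 1.77% and 2.57%. None was called in the library labelled ΔTM, compared to 1.54% higher and 1.57% lower. On the log2 scale, WT and 3NQ both gave a list median of 0.14, compared to −0.057 for the library labelled ΔTM. The last changed sign to 0.0042 after rescaling to the median of ratios. Over all tested genes, the medians were −0.0049 in WT, −0.038 in 3NQ and −0.060 for the library labelled ΔTM. FOSL1, an AP-1 subunit whose transcription responds to ERK, had 79.5 FPKM in Luc and 140.1 in WT, with 126.2 in 3NQ and 93.6 for the library labelled ΔTM. WT and 3NQ stood above the other libraries, and the log2 ratios of 0.81 and 0.66 were called higher. FOS went the other way, with 32.6 in Luc and 21.2 in WT (−0.60, called lower), although a pseudocount of 5 or a rescaling without the 10 most abundant genes ended that call.

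Genes often read together with DUSP6 as ERK output, namely ETV4, ETV5, PHLDA1, CCND1 and EPHA2, passed no threshold against Luc. In WT, their log2 ratios were −0.078 for ETV4, −0.17 for ETV5, −0.054 for PHLDA1, −0.20 for CCND1 and 0.084 for EPHA2. Of all 14 ERK output genes, 8 were above Luc in WT and the rest below, compared to 49.1% of all tested genes above Luc. Among these 8, EGR1 was at 0.52, MYC at 0.46, MAFF at 0.43, IER3 at 0.26 and LIF at 0.19, each below the threshold. In 3NQ, the same genes were at 0.40, 0.34, 0.14, 0.14 and 0.35, respectively. For the library labelled ΔTM, they were at 0.26, 0.13, −0.12, 0.033 and −0.28. ETV1 was called lower in 3NQ (−0.70), from an FPKM of 1.17 in Luc to 0.334. It was also below Luc in WT (0.516, −0.52) and for the library labelled ΔTM (0.529, −0.50), neither called. Among 7 genes of ETS factors, SRF and the repressor CIC, ETS1 alone was called, with 37.3 FPKM in WT (0.66) and 35.5 in 3NQ (0.59), compared to 23.2 in Luc and 24.8 for the library labelled ΔTM. The shares of all tested genes called higher were 3.36% in WT and 1.77% in 3NQ. Of 10 tested kinases of the JNK and p38 pathways, the p38 activator MAP2K6 was called lower in WT (−0.79), from an FPKM of 3.84 in Luc to 1.802. The share of all tested genes called lower in WT was 3.34%, and no other kinase of this list was called against Luc.

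**Figure D4:**
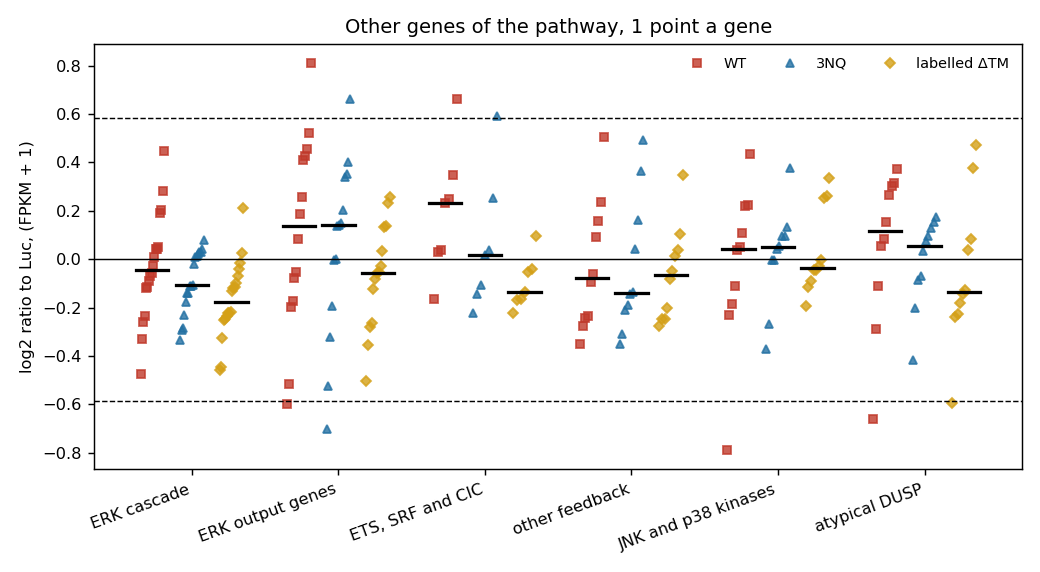
Log2 ratios to Luc, computed on FPKM + 1, of the tested genes of 6 lists, with 1 point for each gene in WT, 3NQ and the library labelled ΔTM. Black bars are the median of each list and dashed lines mark 1.5-fold. The medians of the ERK output genes are 0.14 in WT, 0.14 in 3NQ and −0.057 for the library labelled ΔTM. Over all tested genes, they are −0.0049, −0.038 and −0.060, respectively.

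Genes most alike in pattern to the members were sought by the Euclidean distance of log2(FPKM + 1), centred on each gene's mean, over the 4 libraries. DSC2 was the nearest to DUSP6, at a distance of 0.015, compared to a median of 0.48 over tested genes, at 17.4 FPKM in Luc and 22.3 in WT, with 14.2 in 3NQ and 15.2 for the library labelled ΔTM. PPM1K, EVI5L, SFTA2 and SMIM5 followed, at up to 0.049. ZNF84, PTAR1, NCOA6, PPP1R13L and PITX1 were the nearest to SPRY4, at up to 0.020. CALCOCO1, MYO10, SH3TC1, STX3 and ROBO3 were the nearest to DUSP10, the member with the widest range, at up to 0.047. No member of the set was among the 5 nearest genes of DUSP6, SPRY4 or DUSP10. With 8 tested members among 11769 tested genes, this was likely in advance and does not show whether members vary together. These matches over 4 libraries are a description.

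Transcripts of the members were also compared for ATTTA, the core of AU-rich elements that shorten the life of many immediate-early mRNAs. In the 3′ ends after the stop codon of the GENCODE canonical transcripts, ATTTA occurred 6.01 times per kilobase in DUSP1, 4.30 in SPRED1, 3.04 in DUSP10, 2.56 in SPRY2, 2.12 in SPRY4 and 1.89 in SPRED2. It was rarer in DUSP4 (1.51), DUSP9 (0.979) and DUSP6 (0.495), and DUSP5 had none, whereas the median of tested genes was 1.795. The longer element TTATTTATT was present in DUSP1 and DUSP4 and in 9.52% of tested genes. The 3 members that passed the threshold in a comparison thus lay on both sides of the median, and RNA decay was not measured here.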

How the data were processed

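Poly(A) RNA of 4 MKN28 lines was sequenced, with 1 library per group. The authors filtered reads on undetermined and low-quality bases, mapped them to GRCh37 with TopHat and deposited an FPKM for each gene from Cufflinks (version 2.1.1), with non-coding regions masked and multi-mapped reads and fragment bias corrected. The values are therefore scaled for library size and length, read counts are not given, and the depth and precision of each library are unknown. Groups were taken from the sample titles. Log2 ratios of FPKM + 1 (pseudocount 1) were taken in numpy 2.4.6 and pandas 2.3.3 (Python 3.11.15) for 6 comparisons over genes that reached 1 FPKM in any library, and genes at 1.5-fold or more were called. Where a symbol repeated, the entry with the higher mean was used. The steps were tested on simulated data. The members and lists were chosen with earlier results of these data known. Named genes were all members, list genes called against Luc and the 5 most alike patterns of DUSP6, SPRY4 and the member with the widest range. Other genes were named after their values were seen. The share of calls among genes of 2 to 5 FPKM and the ATTTA counts (GENCODE transcripts on GRCh37) were added after the data were seen. Figures were drawn with matplotlib 3.10.9.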

Additional observations from a re-analysis of the deposited data

How the results depend on the processing

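No paired analysis was possible because each group had 1 library. Ratios were recomputed with a 2-fold threshold, with a pseudocount of 0.1 or 5, without the filter, with an FPKM of at least 5, with 3 rescalings and, for WT against Luc, with 2 other controls. A 2-fold threshold, a pseudocount of 5 and an FPKM of at least 5 each left 0 members called in WT against Luc, WT against 3NQ and WT against the library labelled ΔTM, where 1 was called before. The mean of the other 3 libraries or of 3NQ and the library labelled ΔTM as the control left 0 called in WT, and rescaling to the upper quartile or to the median of ratios left 0 in WT against 3NQ. With a pseudocount of 0.1, 2 members were called in WT against Luc (DUSP9 and DUSP10) and 2 against the library labelled ΔTM (DUSP6 and DUSP10). The member median in WT moved to −0.0053 with an FPKM of at least 5 and to 0.25 against the mean of 3NQ and the library labelled ΔTM. That of WT against 3NQ moved to 0.00034 with an FPKM of at least 5. That of WT against the library labelled ΔTM moved to −0.0031 with an FPKM of at least 5 and to 0.14 without a filter. The filter at 5 removes DUSP6, DUSP9 and DUSP10 by its construction, and the cause of the other changes was not tested. In 3NQ against Luc, the library labelled ΔTM against Luc and 3NQ against that library, 0 members were called under all alternatives run. Among the other genes named as called against Luc, a pseudocount of 5 also ended the calls of DUSP8, DUSP28, ETV1, MAP2K6 and FOS, and that of ETS1 in 3NQ, whereas FOSL1 in WT and 3NQ stayed past the threshold. In WT, either of the 2 other controls ended the calls of FOSL1, FOS, ETS1 and DUSP28, while MAP2K6 kept its call and EPHA4 was called higher. DUSP8 was called against the mean of the other 3 libraries but not against that of 3NQ and the library labelled ΔTM. No called ratio changed sign. Depth is unknown, and without replicates no spread within a group is known.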

Other observations

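Genes of the pathway that differed between constructs without passing a threshold against Luc were looked up after their values were seen. EPHA4, an ephrin receptor used as an ERK output gene, had 4.90 FPKM in Luc and 6.84 in WT, with 3.10 in 3NQ and 3.62 for the library labelled ΔTM, and its log2 ratios to Luc were 0.41, −0.52 and −0.35. Its order of libraries was WT, Luc, the library labelled ΔTM and 3NQ, as for DUSP6. EPHA4 was called higher in WT against 3NQ (0.93) and against the library labelled ΔTM (0.76), compared to 2.89% and 4.25% of all tested genes. BRAF, a kinase of the cascade, had 10.7 in Luc and 14.9 in WT, with 11.05 in 3NQ and 9.02 for the library labelled ΔTM. It was called higher in WT only against that last library (0.67), compared to 4.25% of all tested genes. With 1 library per group, these orders have no replicate check.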
